A study of Homo sapiens with 8 samples.

Results

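The proteasome genes described here are the 49 genes, of 58302 in the deposited table, whose symbol is PSM followed by a letter from A to G and a number, or is POMP. They encode the subunits of the proteasome, its alternative activators, its inhibitor and factors that help to assemble it. RNA was measured in 4 cultures of HCT116 p53+/+ cells treated with 1 µM MANIO and in 4 cultures treated with the solvent DMSO, each for 24 hours. HCT116 is an established human colon cancer line, p53+/+ marks its intact p53 alleles in both groups, and MANIO is a compound known here only by that name. The design asks whether p53 signalling can be engaged transcriptionally by the compound. It has no group of cells without p53, so whether a difference depends on p53 cannot be told from it. The labels call the 4 cultures of a group biological replicates of 1 cell line, so the p-values below measure the spread between cultures of that line.

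The libraries held 27945196 to 32509020 counts each, and 15712 genes had enough counts to be tested. Levels are given as counts per 1000000 counts after TMM scaling of the libraries (CPM), and differences as the log2 fold change of MANIO over DMSO with its standard error (SE). A gene was called higher or lower where the quasi-likelihood test of edgeR, adjusted by Benjamini-Hochberg over all tested genes, gave it an adjusted p under 0.05. By that rule 54.6% of all tested genes were called, 27.8% higher and 26.8% lower in MANIO, and the median log2 fold change of all tested genes was 0.00. The p53 targets CDKN1A and MDM2 were higher in MANIO, with log2 fold changes of 2.43 (SE 0.0750) and 1.85 (SE 0.0606). Of 8 colon epithelial marker genes 6 averaged at least 1 CPM, among them EPCAM and CDH1. CDX1 and VIL1 lay below that, and KRT20 averaged only 1.54 CPM in MANIO and 1.57 CPM in DMSO. Among the DMSO libraries, replicate 1 stood apart: its counts differed from those of the other DMSO libraries by a chi-square per degree of freedom of 20.4 to 24.0, where 1 is sampling noise, against 3.58 to 10.1 between the others. In bulk RNA, fewer cells that express a gene and less RNA of it per cell cannot be told apart.

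The 26S proteasome degrades proteins that carry ubiquitin chains. Its 20S core is a barrel of alpha rings at the ends and beta rings inside, and the beta subunits encoded by PSMB5, PSMB6 and PSMB7 hold the proteolytic sites. The 19S particle caps the core: its base carries a ring of ATPases that unfold substrates, and its lid holds the enzyme that removes ubiquitin. In cells exposed to interferon, and in many immune cells, the products of PSMB8, PSMB9 and PSMB10 take the places of those of PSMB5, PSMB6 and PSMB7 in newly built cores. The particle is then called the immunoproteasome, and it favours peptides that fit MHC class I molecules. Proteasome subunit genes are known to rise together through the transcription factor NRF1 when proteasome activity is blocked.

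Most subunits of the standard particle were lower after MANIO, each by a modest amount. Of the 49 genes, 47 were tested, and of these 30 were called lower and 4 higher, while 13 were not called. That is 63.8% lower and 8.51% higher, beside the 26.8% and 27.8% of all tested genes given above. The median log2 fold change of the 47 genes was -0.20, and 40 of them lay below 0, beside 49.6% of all tested genes. In 28 genes every MANIO library lay below every DMSO library and in 4 every MANIO library lay above, together 68.1% of those tested, beside 48.3% of all tested genes. Only PSMB10 differed by at least 1.5-fold, a size that 18.9% of all tested genes reached. The 2 genes left untested, PSMA8 of the testis form of the core and PSMB11 of the thymus form, had 0 or 1 count per library. A count of 0 allows a level of up to 0.107 CPM in the library with the fewest counts (3 counts, counting error only).

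**Figure D1:**
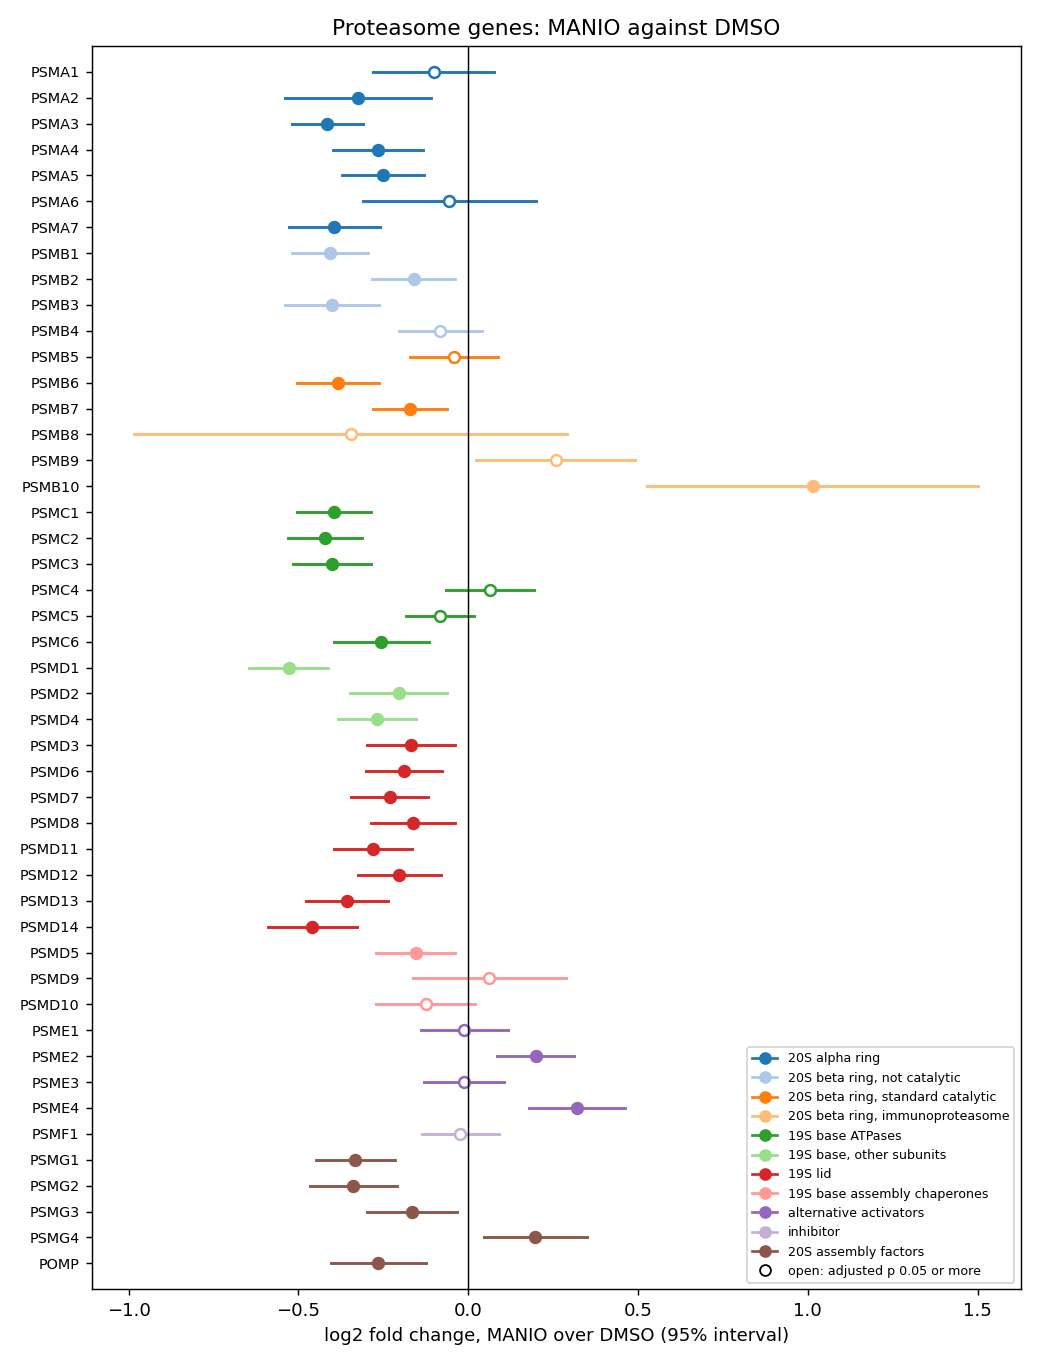
Log2 fold change of MANIO over DMSO (x axis) for the 47 tested proteasome genes (y axis), grouped by role from the 20S core at the top to the assembly factors at the bottom. Points are edgeR estimates with 95% intervals from 4 libraries per group, and filled points had an adjusted p under 0.05. The filled points of the standard core and the 19S particle all lie left of 0, down to -0.53 for PSMD1, and the point farthest to the right is PSMB10 at 1.01.

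The 4 genes called higher were PSMB10, PSME2, PSME4 and PSMG4, none of which is a subunit of the standard 26S particle. Of the 31 tested subunits of the standard particle among the 49 genes, 25 were called lower and 0 higher, by both edgeR and DESeq2. In edgeR 0 were higher at an unadjusted p under 0.05. The 25 are 80.6% of the 31, beside 26.8% of all tested genes called lower. The shares of all tested genes, 26.8% lower and 27.8% higher, also stand beside the counts given below for each role. The 31 genes had a median log2 fold change of -0.26 (-16.2%). The same count was 25 lower without DMSO replicate 1. Among the other 16 tested genes 4 were higher, 5 lower and 7 not called. The summed level of these subunits, together with the 0 or 1 count of PSMA8, was 5027, 5149.8, 4868 and 4890.0 CPM in the MANIO libraries (replicates 1 to 4, as in all lists below), against 6062, 6237, 6003 and 5624 CPM in the DMSO libraries. No MANIO library reached the lowest DMSO library. The 20S and 19S parts of the sum differed by -16.4% and -16.9% between the groups.

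The promoters of these genes are shown because the members moved in groups. Of the 49 genes 43 matched the RefSeq promoter table (GRCh38.p14), with 52 promoters in all, each running from 250 bases before to 50 bases after an annotated start. The motifs searched, on both strands and with overlaps allowed, were TGACNNNGC, the core of the element bound by NRF1 and NRF2 with small MAF proteins, CCAAT, bound by NF-Y, GAAANNGAAA, the core of the interferon-stimulated response element bound by interferon regulatory factors, TTTGAA, the CHR element of cell cycle genes, and CCGGAAG, bound by ETS factors. Below are the 150 bases before the start, 5′ to 3′ on the gene's strand, with matches to all of these motifs but TTTGAA in capitals. The first 4 belong to 3 of the genes called higher and to PSMB9, and the last 4 to the genes with the smallest p among the alpha ring, the ATPases, the lid and the rest of the base.
PSMB10 (chr16:67936851-67937000, minus strand): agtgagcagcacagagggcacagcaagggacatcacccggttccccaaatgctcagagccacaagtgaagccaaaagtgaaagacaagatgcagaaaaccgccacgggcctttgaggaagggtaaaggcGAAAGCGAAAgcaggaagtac
PSME2 (chr14:24146611-24146760, minus strand): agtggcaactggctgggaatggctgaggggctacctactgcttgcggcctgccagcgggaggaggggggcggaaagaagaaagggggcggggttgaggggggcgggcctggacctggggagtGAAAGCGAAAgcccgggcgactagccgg
PSMG4 (chr6:3258797-3258946, plus strand): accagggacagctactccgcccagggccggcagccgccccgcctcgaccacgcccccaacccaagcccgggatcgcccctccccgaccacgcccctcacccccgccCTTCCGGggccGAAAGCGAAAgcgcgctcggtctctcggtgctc
PSMB9 (chr6:32854042-32854191, plus strand): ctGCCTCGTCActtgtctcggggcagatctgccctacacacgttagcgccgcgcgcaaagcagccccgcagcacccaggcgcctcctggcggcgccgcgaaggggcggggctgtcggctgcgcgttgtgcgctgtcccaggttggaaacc
PSMA3 (chr14:58244693-58244842, plus strand): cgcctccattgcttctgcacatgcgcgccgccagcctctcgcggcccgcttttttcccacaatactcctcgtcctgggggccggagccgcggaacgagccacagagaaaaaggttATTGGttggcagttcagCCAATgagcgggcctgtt
PSMC2 (chr7:103347493-103347642, plus strand): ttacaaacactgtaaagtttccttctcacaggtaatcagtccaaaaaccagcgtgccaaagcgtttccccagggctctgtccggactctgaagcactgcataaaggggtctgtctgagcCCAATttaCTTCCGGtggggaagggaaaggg
PSMD14 (chr2:161308275-161308424, plus strand): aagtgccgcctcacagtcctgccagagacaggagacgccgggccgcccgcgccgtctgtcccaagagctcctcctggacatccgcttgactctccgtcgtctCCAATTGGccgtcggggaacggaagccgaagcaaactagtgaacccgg
PSMD1 (chr2:231056717-231056866, plus strand): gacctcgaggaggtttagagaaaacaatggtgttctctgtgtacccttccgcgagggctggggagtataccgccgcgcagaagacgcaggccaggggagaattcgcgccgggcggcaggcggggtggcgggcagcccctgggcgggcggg

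The same 10 letters, GAAAGCGAAA, stand near the start in PSMB10, PSME2 and PSMG4, beginning 21, 28 and 33 bases before it. This spelling was looked for in all promoters after it had been seen in these, and 35 of 35116 promoters (0.0997%) hold it, 5 of them those of the proteasome genes PSMB10, PSME2, PSMG4, PSMB8 and PSME1. The wider form GAAANNGAAA is in 3 of 4 promoters of genes called higher and in 1 of 28 of genes called lower (3.57%), beside 3.57% of all promoters. It is also in 3 of the 18 promoters of genes that were not called, 2 of which are those of PSMB8 and PSME1. CCAAT is in 14 of 28 promoters of genes called lower (50%) and 0 of 4 of genes called higher, beside 34.6% of all promoters. It is in 5 of the 18 promoters of genes that were not called (27.8%) and in 20 of the 52 in all (38.5%). PSMA3 has it on both strands, and in PSMD14 the 2 strands' matches overlap in 1 run of capitals. CCGGAAG is in 16 of the 52 promoters (30.8%), beside 10.3% of all, and TGACNNNGC in 15 (28.8%), beside 13.3%. TTTGAA is in 7 (13.5%), beside 15.2%. These are matches of letters and say nothing about which factors were bound in these cells.

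In the alpha ring, which forms the gate of the core, 5 of 7 tested genes were lower and PSMA1 and PSMA6 were not called. PSMA3 had 112, 118, 119.5 and 123 CPM in the MANIO libraries, against 159, 159, 154 and 158 CPM in the DMSO libraries. The groups were far apart for their spread, and the log2 fold change was -0.41 (SE 0.0490, adjusted p = 5.1e-06). PSMA7, PSMA2, PSMA4 and PSMA5 followed with -0.39, -0.33, -0.26 and -0.25. PSMA6 had 7.86, 7.53, 9.52 and 7.97 CPM in the MANIO libraries, against 6.55, 8.25, 9.29 and 10.0 CPM in the DMSO libraries. These values overlapped throughout (log2 fold change -0.06, SE 0.119, adjusted p = 0.722). For PSMA1 the log2 fold change was -0.10 and the 95% interval ran from -0.28 to 0.08.

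Of the 4 beta subunits without a proteolytic site, PSMB1, PSMB3 and PSMB2 were lower, with log2 fold changes of -0.41, -0.40 and -0.16. PSMB1 had 246, 231, 231 and 247 CPM in the MANIO libraries, against 337, 313, 306 and 309.9 CPM in the DMSO libraries, with no overlap (SE 0.0521, adjusted p = 1.1e-05). For PSMB2 the groups overlapped, and its adjusted p of 0.0273 became 0.0568 to 0.0933 without any one of MANIO replicates 1, 3 and 4 or DMSO replicates 2 and 3. PSMB4 had 259.7, 257, 238 and 232 CPM in the MANIO libraries, against 259, 282, 257 and 245 CPM in the DMSO libraries. It was not called (log2 fold change -0.08, SE 0.0579, adjusted p = 0.25).

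**Figure D2:**
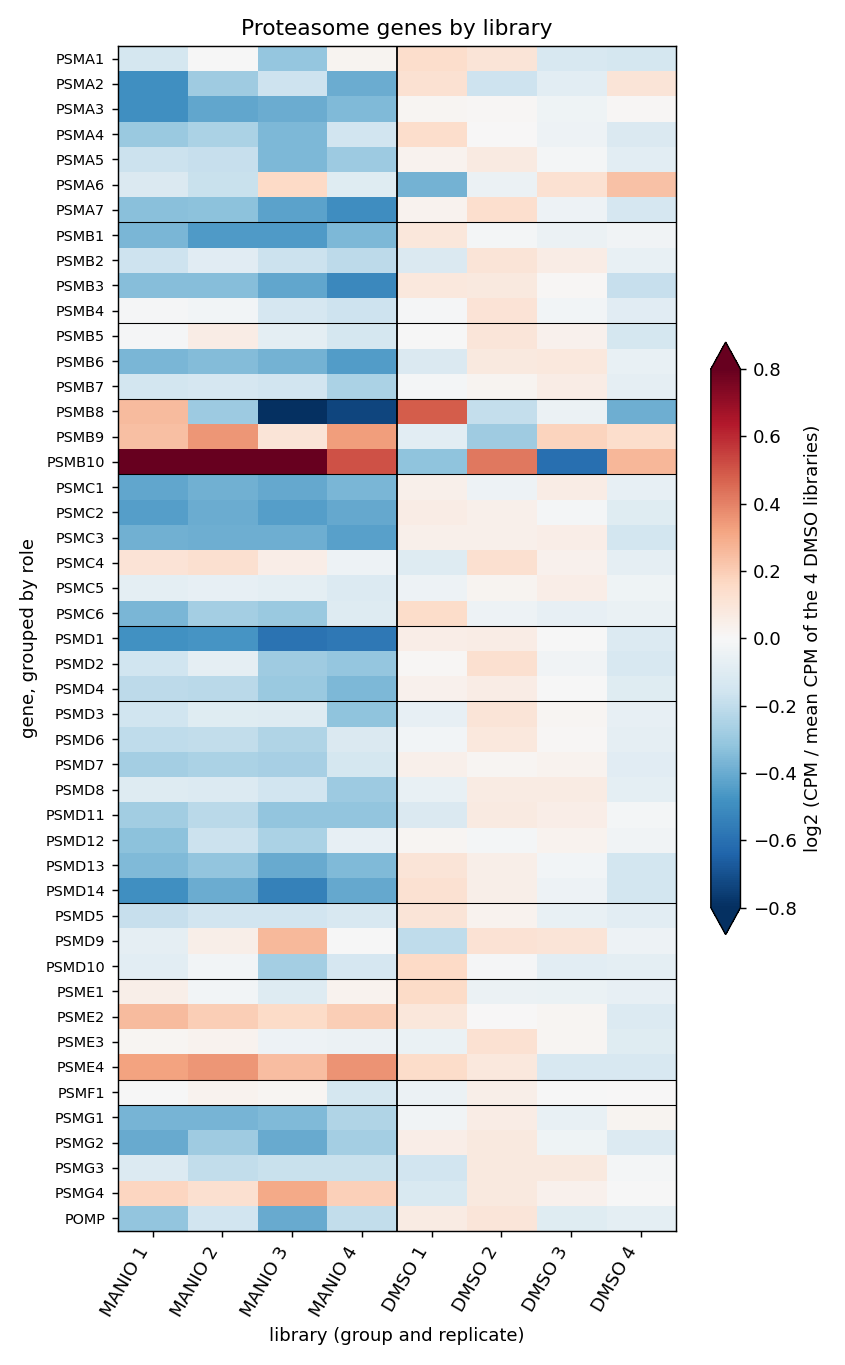
Heat map of the 47 tested proteasome genes (rows, grouped by role) in the 8 libraries (columns, MANIO left of the line and DMSO right of it). Colour gives the log2 of a gene's CPM over its mean CPM in the 4 DMSO libraries, blue below it and red above it, and the scale ends at -0.8 and 0.8. The standard subunits are blue in most MANIO columns, while PSMB10, PSME2, PSME4, PSMG4 and PSMB9, which was not called, are red in all 4.

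The ATPases of the 19S base, which unfold substrates and open the core, split into 4 lower genes and 2 that were not called. PSMC2 had 117, 121, 117 and 119.8 CPM in the MANIO libraries, against 166, 164, 157 and 149 CPM in the DMSO libraries. Its 4 MANIO values lay within 4 CPM of each other and below every DMSO value (log2 fold change -0.42, SE 0.0507, adjusted p = 6e-06). PSMC3, PSMC1 and PSMC6 had log2 fold changes of -0.40, -0.39 and -0.26. PSMC4 had 145, 147, 139 and 130.3 CPM in the MANIO libraries, against 125, 147, 137 and 128 CPM in the DMSO libraries. With all 8 libraries in the fit it was the only standard subunit whose log2 fold change was above 0 (0.06, 95% interval -0.07 to 0.19, adjusted p = 0.399). In PSMC5 the groups did not overlap but the difference was small and not called (-0.08, SE 0.0473, adjusted p = 0.151).

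All 3 other subunits of the base among the 49 genes were lower. ADRM1, a base subunit whose symbol does not start with PSM, was not called (log2 fold change -0.12, SE 0.0778, adjusted p = 0.192). PSMD1 (ENSG00000173692, chromosome 2 at 231056864 to 231172827) encodes the large scaffold on which ubiquitin receptors dock. It had 199.5, 201, 186 and 188 CPM in the MANIO libraries, against 289.9, 291, 278 and 259 CPM in the DMSO libraries. PSMD1 fell by 30.7%, the most among the 47 tested genes (log2 fold change -0.53, SE 0.0542, adjusted p = 1.2e-06). PSMD2, the related scaffold subunit, had 432, 458, 395 and 389 CPM in the MANIO libraries, against 486, 528, 473 and 441 CPM in the DMSO libraries. The groups overlapped in part, and the log2 fold change was -0.20 (SE 0.0668, adjusted p = 0.0172). PSMD2 lost its call without DMSO replicate 2 (adjusted p = 0.0597) or MANIO replicate 3 (0.0563). PSMD4, a ubiquitin receptor, had a log2 fold change of -0.27 (SE 0.0542).

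All 8 lid genes with a PSM symbol were lower, with log2 fold changes of -0.46 to -0.16. In each of them the 2 groups were apart. SEM1, a lid subunit without such a symbol, was lower too (-0.21, SE 0.0565). Of all tested genes 26.8% were called lower, and in 23.7% every MANIO library lay below every DMSO library. PSMD14, the enzyme that cuts ubiquitin chains off substrates, had 162, 173, 157 and 172 CPM in the MANIO libraries, against 248, 235, 222 and 206 CPM in the DMSO libraries. Its log2 fold change was the lowest of the lid (-0.46, SE 0.0613, adjusted p = 1.7e-05). PSMD13, PSMD11, PSMD7, PSMD12 and PSMD6, structural subunits of the lid, had -0.36, -0.28, -0.23, -0.20 and -0.19. PSMD3 had 209, 219, 218 and 188 CPM in the MANIO libraries, against 224, 252, 237 and 223 CPM in the DMSO libraries. The gap between the groups was narrow (-0.17, SE 0.0609, adjusted p = 0.0295), and PSMD3 passed 0.05 without MANIO replicate 1 or 4 or DMSO replicate 2 or 3 (adjusted p of 0.0558 to 0.095). PSMD8 (-0.16) did so without MANIO replicate 4 or DMSO replicate 2 or 3 (0.0723 to 0.0811).

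The catalytic subunits of the standard core did not change alike. PSMB6, the caspase-like site, had 137, 139, 136 and 129.7 CPM in the MANIO libraries, against 163, 187, 187 and 169 CPM in the DMSO libraries. All MANIO values lay below all DMSO values, and PSMB6 fell by 23.4% (log2 fold change -0.38, SE 0.0565, adjusted p = 4.2e-05). PSMB7, the trypsin-like site, had 185, 188, 185 and 172 CPM in the MANIO libraries, against 204, 209, 214 and 195 CPM in the DMSO libraries. Here too the groups were apart, with a smaller fall (-0.17, SE 0.0511, adjusted p = 0.0103). PSMB5, the chymotrypsin-like site and the main target of the proteasome inhibitor bortezomib, had 206, 216, 196 and 188 CPM in the MANIO libraries, against 207, 222, 212 and 188 CPM in the DMSO libraries. These groups overlapped, and the 95% interval of the log2 fold change ran from -0.17 to 0.09 (adjusted p = 0.597).

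The immunoproteasome subunits were far less abundant than these per length of exon, and 1 was higher and 2 were not called. Their mean levels were 2.14, 1.41 and 0.145 CPM per kb in MANIO and 1.78, 0.703 and 0.187 in DMSO for PSMB9, PSMB10 and PSMB8, beside 93.4 to 114 in MANIO and 115 to 122 in DMSO for the standard catalytic subunits. PSMB8 (ENSG00000204264, 32840717 to 32844703) and PSMB9 (ENSG00000240065, 32844136 to 32859585) lie on chromosome 6 of GRCh38, in the MHC region, with overlapping spans on opposite strands in GENCODE, and PSMB10 (ENSG00000205220) on chromosome 16 at 67934502 to 67937087. PSMB10, which replaces PSMB7, had 3.17, 3.14, 2.31 and 1.85 CPM in the MANIO libraries, against 1.04, 1.75, 0.859 and 1.56 CPM in the DMSO libraries. Every MANIO value was above every DMSO value, and the level was 2.02-fold higher (log2 fold change 1.01, SE 0.228, adjusted p = 0.00171). These levels stood for 55 to 103 reads per MANIO library and 27 to 50 reads per DMSO library. PSMB9, which replaces PSMB6, had 6.46, 7.01, 5.89 and 6.90 CPM in the MANIO libraries, against 5.17, 4.51, 6.20 and 6.04 CPM in the DMSO libraries. The groups overlapped at MANIO replicate 3, and the gene missed the threshold (0.26, SE 0.110, adjusted p = 0.0585). Without MANIO replicate 3, DMSO replicate 3 or DMSO replicate 4 it passed, with adjusted p of 0.0391, 0.0354 and 0.0479. PSMB8, which replaces PSMB5, had 0.665, 0.457, 0.285 and 0.336 CPM in the MANIO libraries, against 0.781, 0.489, 0.541 and 0.426 CPM in the DMSO libraries. That is 9 to 21 reads per MANIO library and 12 to 21 per DMSO library, and a log2 fold change anywhere from -0.98 to 0.29 lies in the 95% interval (adjusted p = 0.348).

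**Figure D3:**
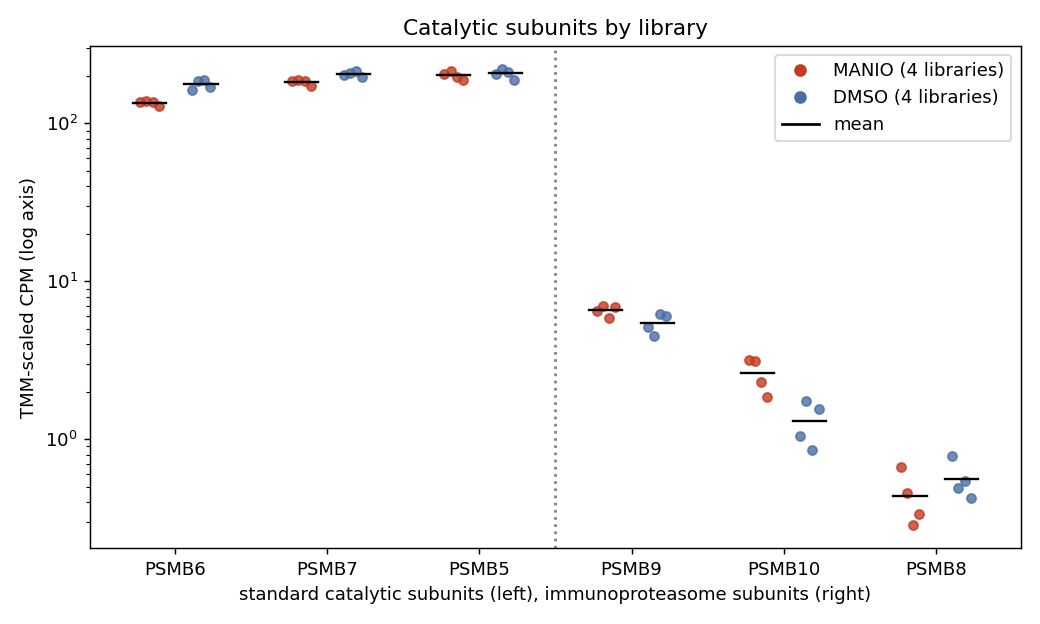
TMM-scaled CPM on a log axis (y axis) of the standard catalytic subunits PSMB6, PSMB7 and PSMB5 and of the immunoproteasome subunits PSMB9, PSMB10 and PSMB8 (x axis). Each point is 1 library, with MANIO left of DMSO, and the bar is the mean of 4 libraries. The standard subunits lie between 129.7 and 222 CPM, and the immunoproteasome subunits between 0.285 and 7.01 CPM.

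Set against its standard counterpart within each library, the balance shifted toward the immunoproteasome subunit in 2 of the 3 pairs. There were 18.8 to 23.03 counts of PSMB6 for each count of PSMB9 in the MANIO libraries, against 28.1 to 41.4 in the DMSO libraries. The mean log2 ratio of PSMB9 to PSMB6 was -4.37 ± 0.13 in MANIO and -5.02 ± 0.25 in DMSO (SD, n = 4 each), a 1.57-fold difference of 0.65 with no overlap of the groups. There were 58.5 to 93.0 counts of PSMB7 for each count of PSMB10 in the MANIO libraries, against 119 to 249 in the DMSO libraries. The mean log2 ratio of PSMB10 to PSMB7 was -6.16 ± 0.33 in MANIO and -7.36 ± 0.51 in DMSO (SD, n = 4 each), a 2.30-fold difference of 1.20, again without overlap. For both pairs the exact two-sided permutation test over 70 assignments gave p = 0.0286, which is the least that 4 against 4 libraries allow, and 0.0429 once adjusted by Benjamini-Hochberg over the 3 pairs. There were 309 to 688 counts of PSMB5 for each count of PSMB8 in the MANIO libraries, against 265 to 453 in the DMSO libraries. For this pair the groups overlapped, with a log2 ratio difference of -0.36 (exact permutation p = 0.286, adjusted 0.286). Of the PSMB9 pair, PSMB6 had a log2 fold change of -0.38 and PSMB9 one of 0.26 that was not called. Of the PSMB10 pair, PSMB10 had 1.01 and PSMB7 -0.17. How often the ratios of other gene pairs were apart was not examined. Of single tested genes, 48.3% had groups that did not overlap.

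**Figure D4:**
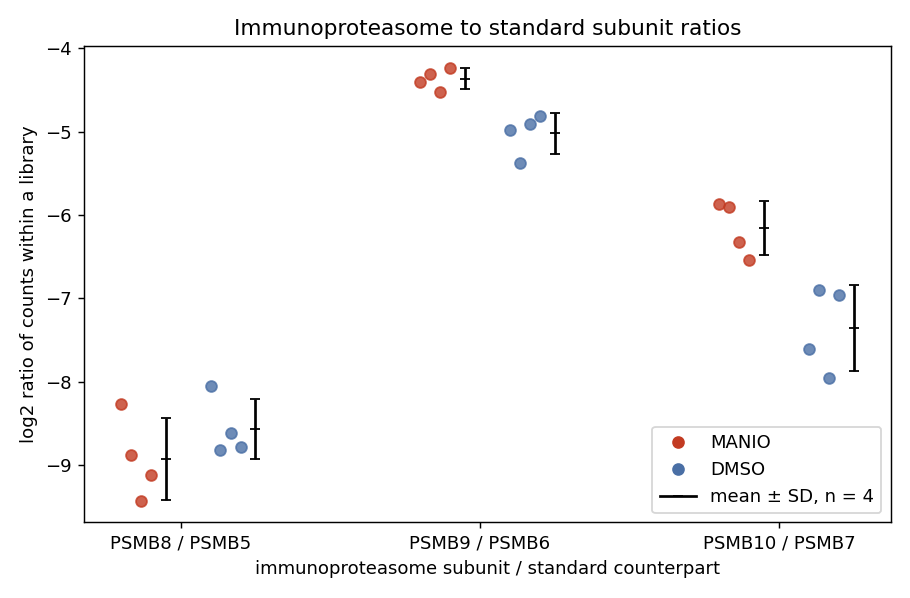
Log2 ratio of the counts of each immunoproteasome subunit to those of its standard counterpart within a library (y axis) for the 3 pairs (x axis). Points are libraries, MANIO left of DMSO, and bars are the mean ± SD of 4. The groups are apart for PSMB9 to PSMB6 and PSMB10 to PSMB7 and overlap for PSMB8 to PSMB5.

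Even so the immunoproteasome subunits remained a small share of the catalytic transcripts as counted. After division by exon length, PSMB8, PSMB9 and PSMB10 made up 1.18% ± 0.106 of the summed CPM per kb of the 6 catalytic subunits in MANIO and 0.752% ± 0.0858 in DMSO (SD, n = 4 each). The lowest MANIO library had 1.05% and the highest DMSO library 0.878%. The share itself depends on the scaling, at 2.22% in MANIO and 1.51% in DMSO per coding length, an alternative added after seeing the data, and at 1.82% in MANIO and 1.24% in DMSO without division by length. No test was made of this sum. It rests in part on PSMB10, whose level is uncertain because of shared bases, as given next.

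PSMB10 shares much of its sequence with another annotated gene. In GENCODE release 29, 58.3% of its coding bases also belong to exons of AC040162.1, a protein-coding gene on the same strand, whose own counts were 61 to 82 in the MANIO libraries and 33 to 47 in the DMSO libraries. AC040162.1 was called higher as well (log2 fold change 0.57, SE 0.157, adjusted p = 0.0066). How reads in shared bases were counted was not given in the sources used here, so the level of PSMB10 is uncertain. This also limits its ratio to PSMB7 and the immunoproteasome share above. The levels of PSMA2 (97.1% of coding bases), PSMA1 (88.6%), PSMA6 (70.4%) and PSMD9 (58.7%) are uncertain in the same way. Each shares these bases with a protein-coding gene on its own strand that had at most 7 counts in any library. In DMSO, PSMA2, PSMA6 and PSMD9 stood at 1.34, 1.31 and 0.591 CPM per kb of exon and PSMA1 at 12.7. The 28 standard subunits with at most 50% of coding bases shared had a median of 41.1 CPM per kb in MANIO and 51.7 in DMSO, where they ranged from 12.0 for PSMD6 to 170.5 for PSMB3. Among those 28 subunits 24 were called lower. In PSMB8, 14.0% of the coding bases lie in exons of PSMB8-AS1 on the opposite strand, which the library kit does not tell apart.

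**Figure D5:**
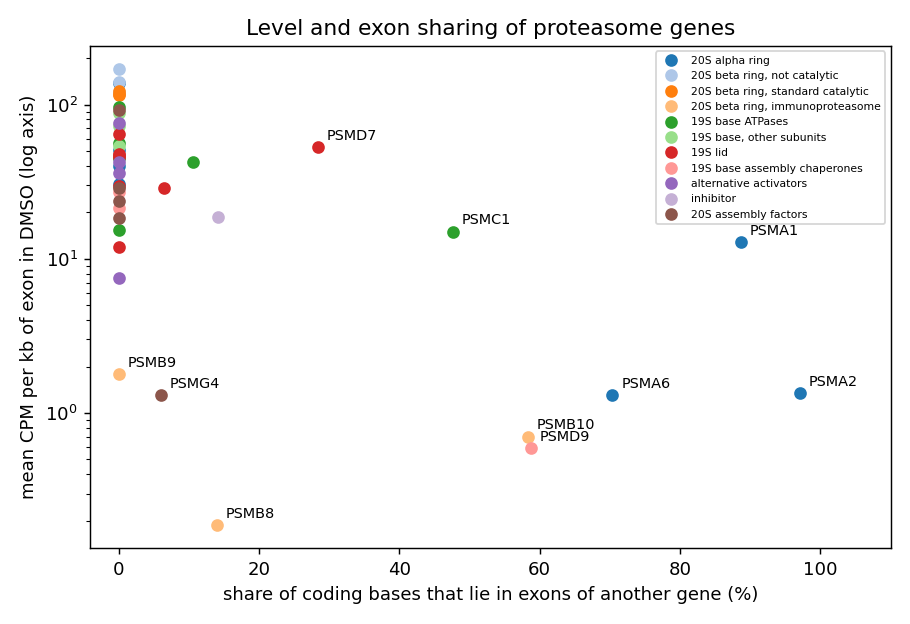
Mean CPM per kb of exon in the 4 DMSO libraries on a log axis (y axis) against the share of a gene's coding bases that another gene's exons also cover (x axis) for the 47 tested proteasome genes, coloured by role. PSMA2, PSMA6, PSMB10 and PSMD9 are over 50% shared and lie between 0.591 and 1.34 CPM per kb, PSMA1 lies at 12.7, and PSMB8, PSMB9 and PSMG4 are low with little sharing.

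Of the chaperones that help to build the 19S base, PSMD5 was lower and PSMD9 and PSMD10 were not called. PSMD5 had 82.7, 84.5, 84.8 and 86.2 CPM in the MANIO libraries, against 101, 96.2, 90.5 and 88.6 CPM in the DMSO libraries. The groups were apart by a small margin (log2 fold change -0.15, SE 0.0542, adjusted p = 0.0245), and the call was lost without MANIO replicate 1 or 2 or DMSO replicate 1 or 2 (adjusted p of 0.0573 to 0.0703). PSMD9 had 4.94, 5.37, 6.20 and 5.18 CPM in the MANIO libraries, against 4.50, 5.63, 5.57 and 5.04 CPM in the DMSO libraries. The groups overlapped (0.06, SE 0.106, adjusted p = 0.643). PSMD10, also known as gankyrin, had a log2 fold change of -0.13 with a 95% interval from -0.27 to 0.02.

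The alternative activators, which open the core without the 19S particle, had 2 higher genes and 2 that were not called. PSME4, the activator PA200, had 96.4, 98.4, 91.6 and 98.8 CPM in the MANIO libraries, against 85.5, 81.8, 70.7 and 70.8 CPM in the DMSO libraries. The groups were apart, and the level was 24.8% higher (log2 fold change 0.32, SE 0.0661, adjusted p = 0.00081). PSME1 and PSME2 encode the 2 kinds of subunit of PA28, the activator that interferon induces together with the immunoproteasome, and PSME3 encodes the nuclear activator PA28 gamma. PSME2 had 152, 147, 142 and 147 CPM in the MANIO libraries, against 136, 128, 129 and 119 CPM in the DMSO libraries, with no overlap (0.20, SE 0.0534, adjusted p = 0.00545). Its partner PSME1 had 141, 134, 127 and 139 CPM in the MANIO libraries, against 151, 132, 131 and 129.9 CPM in the DMSO libraries, and the groups overlapped (-0.01, SE 0.0597, adjusted p = 0.889). The difference between PSME2 and PSME1 was not tested. PSME3 had a log2 fold change of -0.01 (95% interval -0.13 to 0.11), and PSMF1, an inhibitor of the core, one of -0.02 (-0.14 to 0.09).

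PSMF1 had 99.2, 101, 101 and 90.1 CPM in the MANIO libraries, against 96.2, 102, 99.2 and 99.5 CPM in the DMSO libraries, values that overlapped (adjusted p = 0.732). The factors that assemble the 20S core went the way of the core genes in 4 of 5 cases. PSMG1, which pairs with PSMG2 to start the alpha ring, had 56.0, 56.2, 56.9 and 61.5 CPM in the MANIO libraries, against 71.2, 75.7, 69.8 and 73.6 CPM in the DMSO libraries. The groups were well apart (log2 fold change -0.33, SE 0.0543, adjusted p = 0.00011), and PSMG2 was lower by nearly the same amount (-0.34, SE 0.0603). POMP, which joins the beta ring as it forms and is the first protein the new core degrades, was lower as well (-0.26, SE 0.0652, adjusted p = 0.00304). PSMG3, which pairs with PSMG4, had 42.8, 40.4, 40.9 and 40.8 CPM in the MANIO libraries, against 41.4, 48.8, 48.8 and 45.7 CPM in the DMSO libraries. The groups overlapped at DMSO replicate 1, and its call (-0.16, SE 0.0622, adjusted p = 0.0354) was lost without any one of MANIO replicates 2, 3 and 4 or DMSO replicates 2, 3 and 4 (adjusted p of 0.0515 to 0.11). PSMG4 was the assembly factor called higher (0.20, SE 0.0715, adjusted p = 0.0284), with 15.4, 14.9, 16.9 and 15.6 CPM in the MANIO libraries, against 12.6, 14.5, 14.0 and 13.6 CPM in the DMSO libraries. Its call was lost without MANIO replicate 3, DMSO replicate 1 or DMSO replicate 4 (adjusted p of 0.0582 to 0.0951).

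Other genes of the pathway were followed in 4 lists. Of 16 tested partners of the proteasome whose symbols fall outside the rule, 7 were lower (43.8%, beside 26.8% of all tested genes), 2 were higher (12.5%, beside 27.8%) and 7 were not called, and the median log2 fold change was -0.14. The share called in either direction, 56.2%, was about that of all tested genes, 54.6%, and DESeq2 called 8 lower and 1 higher. TXNL1, a thioredoxin-like protein bound to the 19S particle, was lower (-0.33, SE 0.0544). UBQLN4, which carries ubiquitinated proteins to the proteasome, was higher (0.36, SE 0.0557). Of the 6 ubiquitin genes and ubiquitin-activating enzymes 0 were called by edgeR or by DESeq2, and 0 had an unadjusted p under 0.05 in edgeR, beside 54.6% of all tested genes called. UBA6, an activating enzyme, had a log2 fold change of 0.11 (SE 0.0672, adjusted p = 0.171).

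NFE2L1 encodes NRF1, and of the 11 tested genes of its axis 6 were higher (54.5%, beside 27.8% of all tested genes), 1 was lower (9.09%, beside 26.8%) and 4 were not called, with a median of 0.14. Taken in either direction, 63.6% were called, near the 54.6% of all tested genes. MAFF, a small MAF partner, and OGT, the enzyme that attaches O-GlcNAc to proteins, were higher with log2 fold changes of 0.65 (SE 0.0685) and 0.62 (SE 0.0585). SEL1L, which works with the ubiquitin ligase SYVN1 in the endoplasmic reticulum, was lower (-0.21, SE 0.0519). NFE2L1 itself, named here after its value was seen, averaged 360.1 ± 7.66 CPM in MANIO and 326 ± 14.4 CPM in DMSO (SD, n = 4 each; log2 fold change 0.14, SE 0.0504, adjusted p = 0.0259).

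Among 10 genes that act with the immunoproteasome in antigen processing 7 were higher, 0 lower (by edgeR, by DESeq2 and at an unadjusted p under 0.05) and 3 not called, with a median of 0.28. All tested genes were higher in 27.8% of cases and called in either direction in 54.6%, and this list was called in 70% of cases. ERAP2, which trims peptides in the endoplasmic reticulum, averaged 10.1 ± 0.823 CPM in MANIO and 4.47 ± 0.788 CPM in DMSO (SD, n = 4 each; log2 fold change 1.19, SE 0.115). TAP1 and TAP2 encode the transporter that brings peptides there. TAP1 had 122, 111, 103 and 95.3 CPM in the MANIO libraries, against 64.8, 63.6, 58.7 and 57.9 CPM in the DMSO libraries, well apart (0.82, SE 0.0723, adjusted p = 2.5e-07). The RefSeq starts of TAP1 and PSMB9 lie 488 bases apart on chromosome 6, and the genes run in opposite directions. TAP2 was higher too (0.53, SE 0.0551), though 90.6% of its coding bases also lie in another gene. IRF1, a transcription factor of the interferon response named after its value was seen, had a log2 fold change of 0.36 (adjusted p = 0.00038), with 59.5% of its coding bases in another gene.

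Because blood cells carry the immunoproteasome, their markers are given beside these values. Of 10 haematopoietic markers only ITGAM averaged at least 1 CPM, in MANIO, and the summed level of the list was 1.92 to 2.28 CPM in the MANIO libraries and 0.255 to 0.873 CPM in the DMSO libraries. MS4A1 was at 0 in every library, and PTPRC, the gene of the common leukocyte antigen, had 1 count, in MANIO replicate 1. Of 9 fibroblast and endothelial markers only COL1A1 averaged at least 1 CPM, and the list summed to 39.9 to 47.9 CPM in the MANIO libraries and 22.4 to 27.6 CPM in the DMSO libraries, with LUM at 0 in every library. The epithelial list summed to 3222 to 3681 CPM in the MANIO libraries and 2606 to 2904 CPM in the DMSO libraries. The part of these markers in the results was not tested.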

How the data were processed

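The authors deposited raw read counts per gene for the 8 libraries, as the whole-number values show. Per the labels' protocols, total RNA was made into TruSeq RNA version 2 libraries, which do not mark strand, and sequenced on an Illumina HiSeq. HTSeq, STAR 2.5.3a, FastQC 1.3, DESeq2 and the build GRCh38 appear in the submitters' processing notes with no role. The annotation release was not given in the sources used here, nor how reads in overlapping genes were counted. Positions, exon lengths and overlaps came from GENCODE release 29, which holds 58039 of the 58302 identifiers. In R 4.3.3, genes passing filterByExpr were scaled by TMM and tested with edgeR 4.0.16 (quasi-likelihood, robust, model of group alone, Benjamini-Hochberg adjustment). DESeq2 1.42.0, other scalings, no filter, a replicate block and leaving out each library were the alternatives. Ratios within pairs were tested by exact permutation. Libraries of a group differed by 3.58 to 24.0 times the sampling noise, so none was a copy. Members, lists and motifs were chosen with earlier results of these data known. Values in every library are given for the 6 catalytic subunits and, in each other role, for the genes with the smallest and the largest p, and from each other list the 3 genes with the smallest p are named, except for some that are not reported here. PSME2, PSMG4, POMP, ADRM1, SEM1 and the genes marked so in the text were added after their values were seen.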

Additional observations from a re-analysis of the deposited data

Results flagged for a closer look

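In 7 of the 94 groups of 4 libraries (7.45%) the highest or lowest library lay far from the other 3, by a test that chance passes in about 1 group in 20. PSMC3 was marked in both groups: replicate 4 had 164 CPM in MANIO, against 168 to 169 CPM in the other MANIO libraries, and 199.7 CPM in DMSO, against 227 to 229 CPM in the other DMSO libraries. PSMD7 had 132 CPM in MANIO replicate 4, against 120.4 to 122 CPM in the other MANIO libraries. PSMG1 had 61.5 CPM in MANIO replicate 4, against 56.0 to 56.9 CPM in the others. PSMA3 had 154 CPM in DMSO replicate 3, against 158 to 159 CPM in the others. PSMC6 had 127 CPM in DMSO replicate 1, against 109.9 to 112 CPM in the others, and PSME1 had 151 CPM there, against 129.9 to 132 CPM in the others. PSMA3, PSMC3, PSMC6, PSMD7 and PSMG1 were called lower in MANIO with any library left out.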

How the results depend on the processing

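Under DESeq2, other scalings, no filter on low counts, a replicate block and with each library left out, 24 to 30 proteasome genes were called lower, 3 to 5 higher, and 21 to 25 standard subunits lower. The last of these counts was added after seeing the data. DESeq2 called 30 lower and 4 higher. Over all 47 genes and 13 alternatives, 571 of the results kept their direction and call, 29 lost the call, 3 gained it and 8 changed sign. The changes of sign were of genes that were never called: with a library left out, the log2 fold change ranged from -0.16 to 0.026 for PSMA6, from -0.0074 to 0.11 for PSMD9, from -0.036 to 0.041 for PSME1, from -0.046 to 0.032 for PSME3 and from -0.041 to 0.014 for PSMF1. With no filter PSMG4 lost its call (adjusted p = 0.0896). The calls lost were of PSMB2, PSMD2, PSMD3, PSMD8, PSMD5, PSMG3 and PSMG4. The scalings and other settings moved the median of all genes by less than 0.02.

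Deviations of same-numbered libraries correlated weakly, all above 0 (0.0385, 0.163, 0.118 and 0.0958). Those of libraries with different numbers ran from -0.314 to 0.290. Not every library correlated best with its own number, so the numbers were not taken to pair them. A pairing is not excluded by these values. With the replicate block 29 genes were lower and 4 higher, and PSMG3 lost its call (adjusted p = 0.0514). By sign-flips of the 4 same-numbered pairs, the smallest p such a test allows is 0.125, which the 0.65 of PSMB9 to PSMB6, the 1.20 of PSMB10 to PSMB7 and the -0.36 of PSMB8 to PSMB5 all reached. With a library left out these ratios ranged from 0.53 to 0.72 and from 1.00 to 1.35, and that of PSMB8 to PSMB5 from -0.58 to -0.19. The immunoproteasome share differed by 0.425 percentage points, by 0.396 to 0.469 with a library left out, by 0.582 without division by length and by 0.704 per coding length, which was added after seeing the data. Depth limits PSMB8, whose lowest library held 9 reads.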
